A study of Mus musculus with 16 samples.

Results

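Ccl2, Ccl7, Ccl8, Ccl12, Cx3cl1, Ccr2 and Cx3cr1 are the ligands and receptors best known for drawing monocytes out of the blood. They were taken by name, 7 of the 38003 genes in a deposited single-cell RNA count matrix of mouse lung, and set against the monocyte share of each sample. The matrix held 80449 cells of 15 samples in 6 groups. The groups were lungs of mice given 6-OHDA (6-hydroxydopamine, a toxin of sympathetic nerve endings) and seeded with PDAC (pancreatic ductal adenocarcinoma) cells, called 6-OHDA-PDAC (n = 2), BIBO3304 (an antagonist of the neuropeptide Y receptor Npy1r) and PDAC cells, called BIBO3304-PDAC (n = 2), vehicle and PDAC cells, called vehicle-PDAC (n = 2), and 6-OHDA, BIBO3304 and vehicle without PDAC cells (n = 3 each). The series' title names the question as how sympathetic neurons act on lung seeding of pancreatic cancer through neuropeptide Y. The sources used here do not give strain, age, doses or the PDAC line. Nothing says whether samples are single mice, so a p-value measures only how far these samples spread, which may be technical.

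The authors' labels put 33 to 75 cancer cells in 5 of the 6 seeded samples and 0 to 2 in each sample without seeding. The library labelled vehicle-PDAC 2 held 0 cancer cells of 9157, which allows a share of up to 0.0403% (exact binomial upper bound of the 95% interval), so its label is not borne out. Calls of single genes that use it, and most other fitted values that do, are also given without it, with vehicle-PDAC 1 then alone in its group and taken to vary like the other groups. Depth ran from 10003796 to 32580698 transcripts per sample. Of the 80449 cells, 18900 shared their combination of well barcodes with a cell of another sublibrary, and their part in the results was not tested. The marker list of monocytes (8 genes) had its highest summed level in the cells labelled monocytes (1893 CPM), with neutrophils next (1177 CPM). The marker list of interstitial macrophages (7 genes) was highest in the cells of that label (2440 CPM), but alveolar macrophages lay close to it (2403 CPM). Of those 7 genes, Mrc1 was highest in alveolar macrophages, Lyve1 in large-vessel endothelium and the other 5 in interstitial macrophages. CPM is a gene's count scaled to a common total of all transcripts of the cell type in the sample. It carries TMM scaling except where all samples, or several types, were summed for a level outside the fits. CPM takes no account of gene length, so levels are compared between cells and samples and not between genes.

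Ccl2, Ccl7 and Ccl12 are secreted CC chemokines that bind Ccr2, the receptor that lets classical monocytes leave the bone marrow and enter inflamed tissue. Ccl8 belongs to the same gene family and in the mouse acts mainly through Ccr8. Cx3cl1 is a chemokine anchored in the membrane of endothelial and epithelial cells, cut loose by Adam10 and Adam17, and binds Cx3cr1, which is high on patrolling, non-classical monocytes. In the RefSeq gene order of build GRCm38.p6, Ccl2, Ccl7, Ccl11, Ccl12 and Ccl8 are consecutive coding genes on chromosome 11. Ccr2 and Cx3cr1 lie on chromosome 9, Cx3cr1 beside Ccr8, and Cx3cl1 lies between Ccl22 and Ccl17 on chromosome 8. The genome build of the counts is mm39, so the coordinates given below belong to the RefSeq table and not to the counts.

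Promoter sequences of 5 of the 7 genes were matched by symbol in RefSeq's GRCm38.p6 table, all but Ccl2 and Ccl7. The 250 bases before the start site are printed for Ccl12 and Ccl8, neighbours in the cluster whose transcripts were highest in macrophages, and for Cx3cl1, whose transcripts were highest in capillary endothelium. All 3 read 5′ to 3′ on the plus strand, at chr11:82101595-82101844, chr11:82114935-82115184 and chr8:94771930-94772179. Capitals mark the letters TATAAA and, in Ccl12, both copies of ACTTCC, the reverse strand of the ETS motif GGAAGT.
Ccl12: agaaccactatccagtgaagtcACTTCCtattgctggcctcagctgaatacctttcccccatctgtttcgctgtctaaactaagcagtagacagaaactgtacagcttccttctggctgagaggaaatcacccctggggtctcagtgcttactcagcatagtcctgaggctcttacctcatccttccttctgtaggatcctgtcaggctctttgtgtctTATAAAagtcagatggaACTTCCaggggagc
Ccl8: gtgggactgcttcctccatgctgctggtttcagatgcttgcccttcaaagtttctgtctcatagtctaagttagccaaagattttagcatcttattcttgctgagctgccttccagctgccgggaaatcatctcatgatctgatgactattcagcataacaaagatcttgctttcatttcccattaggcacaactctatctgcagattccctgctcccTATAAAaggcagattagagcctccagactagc
Cx3cl1: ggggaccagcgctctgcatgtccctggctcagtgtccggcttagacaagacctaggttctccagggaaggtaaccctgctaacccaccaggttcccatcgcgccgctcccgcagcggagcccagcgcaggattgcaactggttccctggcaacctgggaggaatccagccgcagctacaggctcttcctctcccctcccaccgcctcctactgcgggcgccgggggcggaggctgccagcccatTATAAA
Positions count back from the start site, with -1 the last base printed. TATAAA began at -31 in Ccl12, at -32 in Ccl8 and at -6 in Cx3cl1, and was present on either strand in 12.4% of 32851 mouse promoter windows of the same length. GGAAGT was matched in Ccl12 at -228 and -14 and was present in 19.7% of windows. Ccr2 matched the letters of the GATA factors, AGATAA on either strand, at -97, which 9.99% of windows held. The AP-1 letters TGANTCA (6.75% of windows), the STAT letters TTCNNNGAA (7.02%) and the NF-kB motif (7.25%) were searched on both strands and were not matched in these 5 windows.

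**Figure D1:**
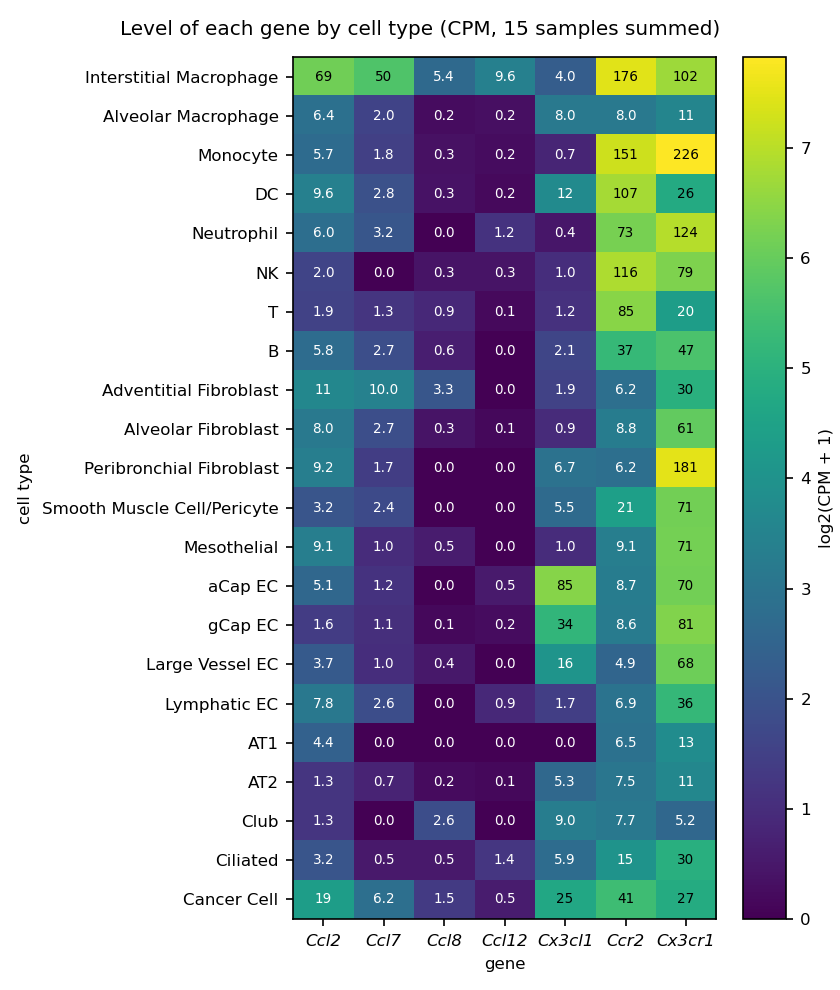
Level of each gene (columns) in each of the 22 cell types (rows), as CPM of the transcripts of all 15 samples summed, printed in each cell and coloured on a log2(CPM + 1) scale. Interstitial macrophages hold the highest Ccl2 (69.4), Ccl7 (50.4) and Ccl12 (9.57), aerocyte capillary endothelium (aCap EC) the highest Cx3cl1 (84.5), and monocytes the highest Cx3cr1 (225.9).

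The 4 CC ligands were highest in interstitial macrophages. Types were ordered over the 19 of 22 with at least 20 cells in 8 or more samples, which leaves out cancer cells, alveolar type 1 cells and club cells. Over the 15 samples, Ccl2 in these cells ranged from 35.6 to 128.7 CPM with a median of 75.3, and averaged 82.9 ± 27.8 (SD). Among these 19 types adventitial fibroblasts came next at 11.1 ± 7.26 CPM, and interstitial macrophages were higher in 15 of 15 samples, by 2.91 on the log2(CPM + 1) scale (p = 6.104e-05, exact two-sided sign-flip test, the smallest 15 samples allow). Below them adventitial and peribronchial fibroblasts did not differ beyond their spread (p = 0.136, exact), nor did peribronchial fibroblasts and dendritic cells (p = 0.211, exact). There were 28 such tests between neighbouring types, 4 for each gene, and the p of the step from interstitial macrophages was 0.00057 after Benjamini-Hochberg adjustment over the 28.

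Cancer cells, measured in 5 seeded samples, lay between them with 18.8 ± 10.6 CPM of Ccl2 (range 7.46 to 33.5, SD, n = 5), set beside the other types with no test.

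Ccl7, a chemokine that shares most of Ccl2's actions, had the same first and second type. It averaged 65.0 ± 34.2 CPM in interstitial macrophages and 10.3 ± 5.74 CPM in adventitial fibroblasts, again higher in 15 of 15 samples (2.65 on the log2 scale, p = 6.104e-05, adjusted 0.00057, exact). Lymphatic endothelium had the next mean for Ccl7, below adventitial fibroblasts in 13 of 14 samples (2.76, p = 0.000610, exact). That rank rests on its only Ccl7 transcripts, 2 in BIBO3304-PDAC 2 and 1 in vehicle-PDAC 1. Lymphatic endothelium was above neutrophils, the next type, in 1 of 14 samples. Ccl12 was the most concentrated ligand, with 101 of its 153 transcripts (66.0%) in interstitial macrophages, at 13.04 ± 11.4 CPM. A sample held 0 to 14 Ccl12 transcripts in these cells, and the 3 vehicle samples ran from 6.64 to 29.9 CPM. Ccl8 had 185 transcripts in the whole matrix, and interstitial macrophages (6.42 ± 4.70 CPM) and adventitial fibroblasts (3.55 ± 3.04 CPM) did not differ beyond their spread (higher in 10 of 15 samples, p = 0.154, exact).

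A high level per cell was not the same as most of the transcripts. Interstitial macrophages held 29.9% of the 2446 Ccl2 transcripts, alveolar macrophages 25.1% at only 6.82 ± 2.50 CPM, and alveolar fibroblasts 17.5% at 8.83 ± 4.45 CPM. For Ccl7 the shares were 44.5%, 16.2% and 11.97% of 1195 transcripts. Cancer cells averaged 6.92 ± 3.33 CPM of Ccl7 (SD, n = 5), with a median of 19016 transcripts per cell.

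Within interstitial macrophages few cells carried the ligands. Ccl2 was found in 422 of 3295 cells (12.8%), and the top 1% of cells by count (33 cells) held 24.0% of its transcripts. Ranked anew by each gene's own count, the top 33 cells held 29.0% of the Ccl7 and 54.5% of the Ccl12 transcripts. Only 79 cells had a Ccl12 transcript at all, so its value is set largely by low counts. With each cell thinned to 1000 transcripts, Ccl2 was present in 28.0% of the 125 cells with Ccl7 and in 5.00% of the 2781 cells without it. Of the 18 cells with Ccl12, 33.3% had Ccl2 and 44.4% had Ccl7, while in the 2888 cells without Ccl12 the shares were 5.82% and 4.05%. Ccl2 was present in 3.16% of the 411 cells with Ccr2 and in 6.45% of the 2495 without it. These cells come from all 15 samples and are not replicates, so no test was made.

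Across the 22 cell types, the genes whose pattern was most like that of Ccl2 were Ccl7 (Pearson r of log2(CPM + 1) = 0.86, over 22 types that share libraries and differ in depth), Saa3, an acute-phase protein gene (0.77), and C3ar1, the C3a receptor (0.75). Ccl7 was most like Ccl2, C1qa (0.77) and C3ar1 (0.76). Ccl12 was most like Fcna, a ficolin (0.84), C3ar1 (0.82) and Cd163, a haemoglobin scavenger receptor (0.81). For Ccl8 the closest were Aspa (0.76), Retnla (0.68) and Fcrls (0.68). These are descriptions of 22 points.

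Cx3cl1 had another source. It averaged 80.2 ± 35.9 CPM in aerocyte capillary endothelium (range 27.0 to 146.9), 32.2 ± 9.73 CPM in general capillary endothelium (gCap EC) and 16.8 ± 8.14 CPM in large-vessel endothelium. The first step down held in 15 of 15 samples (1.21 on the log2 scale, p = 6.104e-05, adjusted 0.00057, exact) and the next in 14 of 15 (0.996, p = 0.0001221, adjusted 0.000855, exact). Large-vessel endothelium and dendritic cells did not differ beyond their spread (p = 0.0737, exact). Cancer cells, which were left out of this order, averaged 22.2 ± 16.1 CPM of Cx3cl1 (range 9.94 to 50.3, n = 5), between general capillary and large-vessel endothelium, and held 8.54% of its transcripts. Alveolar macrophages, at 7.68 ± 1.76 CPM, held 33.4% of all Cx3cl1 transcripts through their number. The genes most alike over the 22 types were Ybx1 (r = 0.82), Adgrl2 (0.81) and Tox2 (0.79), and r with Ccl2 was -0.04.

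Ccr2, the receptor of Ccl2, Ccl7 and Ccl12, had 2 leading cell types whose levels could not be separated. Monocytes averaged 160.9 ± 69.0 CPM (range 34.3 to 269.6) and interstitial macrophages 154.0 ± 52.5 CPM (range 71.1 to 235.6), with monocytes higher in 8 of 15 samples (p = 0.924, exact). Interstitial macrophages averaged above NK cells (112.9 ± 40.2 CPM, p = 0.0171, adjusted 0.0479, exact), but were higher in only 9 of 15 samples. The order of types was taken from the same samples, which the adjustment does not cover. NK cells, dendritic cells (104.4 ± 36.2 CPM) and T cells (84.1 ± 17.6 CPM) did not differ beyond their spread (p = 0.564 and 0.287, exact). The genes most alike over the 22 types were Runx3 (r = 0.96), Cd52 (0.95) and Fyb (0.95), genes of leukocytes.

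Cx3cr1, the receptor of Cx3cl1, was highest in monocytes at 235.3 ± 57.9 CPM (range 147.2 to 330.8). Peribronchial fibroblasts came next at 157.7 ± 91.1 CPM, lower in 12 of 15 samples (0.77 on the log2 scale, p = 0.0114, adjusted 0.0355, exact), but in samples with at least 50 cells of both types the difference was 0.46 (p = 0.178, exact). Neutrophils (129.7 ± 44.1 CPM) and interstitial macrophages (117.6 ± 44.3 CPM) did not differ from their neighbours above beyond the spread (p = 0.683 and 0.345, exact), and NK cells lay lower (82.3 ± 31.9 CPM, p = 0.000488, adjusted 0.00228, exact). Capillary endothelium and alveolar fibroblasts also carried Cx3cr1, at 78.4 ± 13.6 CPM in gCap EC and 60.3 ± 11.4 CPM in alveolar fibroblasts, which held 26.2% of all its transcripts. Summed over the 13 types that are neither leukocytes nor cancer cells, Cx3cr1 ran from 41.7 to 79.8 CPM over the 15 samples and Ccr2 from 1.14 to 39.3 CPM. Cx3cr1 transcripts per Ccr2 transcript were more numerous in these types than in the monocytes of the same sample in 14 of 15 samples. Cancer cells averaged 42.6 ± 29.3 CPM of Ccr2 and 29.2 ± 11.1 CPM of Cx3cr1 (SD, n = 5). The genes most like Cx3cr1 were Ntng2 (r = 0.87), H3f3a (0.81) and Camkk2 (0.80).

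By group, tests were made with edgeR's quasi-likelihood test on transcripts summed per sample and cell type, with p-values adjusted by Benjamini and Hochberg over all genes of a type and a threshold of 0.05. Genes passed the filter on low counts in 4 types for Ccl2, 4 for Ccl7, 1 for Ccl12, 4 for Cx3cl1, 12 for Ccr2 and 17 for Cx3cr1. Ccl8 passed in 0 types and was tested in whole-lung sums alone. A comparison thus held 42 tests of a gene in a type, or 40 where 6-OHDA-PDAC was involved.

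In interstitial macrophages of PDAC-seeded lungs, Ccl2 and Ccl7 were lower under 6-OHDA. Ccl2 stood at 37.8 and 35.6 CPM in 6-OHDA-PDAC samples, against 72.3 and 89.6 CPM in vehicle-PDAC samples, which is -1.21 ± 0.26 as a log2 fold change (SE, adjusted p = 0.0096). Ccl7 stood at 22.9 and 17.1 CPM in 6-OHDA-PDAC samples, against 50.6 and 56.5 CPM in vehicle-PDAC samples (-1.48 ± 0.32, adjusted p = 0.0112). For both ligands the groups did not overlap, as was so for 47% of all genes tested in these cells.

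Cx3cr1 was lower in the same cells, at 69.7 and 57.7 CPM in 6-OHDA-PDAC samples, against 108.5 and 186.1 CPM in vehicle-PDAC samples (-1.29 ± 0.35, adjusted p = 0.0433). Ccl12 did not pass (3.19 and 2.85 CPM in 6-OHDA-PDAC samples, against 10.3 and 11.03 CPM in vehicle-PDAC samples, -1.82, adjusted p = 0.336), and Ccr2 had 235.6 and 219.5 CPM in 6-OHDA-PDAC samples, against 202.5 and 217.9 CPM in vehicle-PDAC samples (0.03 ± 0.30, adjusted p = 0.985). These 3 calls were all the calls among 40 tests, 0 higher and 3 lower, where 0.405% of all tests passed in this comparison, and 3.2% of genes in interstitial macrophages passed as lower. Without vehicle-PDAC 2, the library with no cancer cells, all 3 calls were lost (Ccl2 -0.98, adjusted p = 0.169, Ccl7 -1.32, adjusted p = 0.111, Cx3cr1 -0.77, adjusted p = 0.555). They were also lost without 6-OHDA-PDAC 1 (adjusted p = 0.112, 0.0664 and 0.196 in the same order), without 6-OHDA-PDAC 2 (0.168, 0.223 and 0.437) and when the 2 groups were fitted alone (0.0665, 0.0588 and 0.115), always with the same sign.

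**Figure D2:**
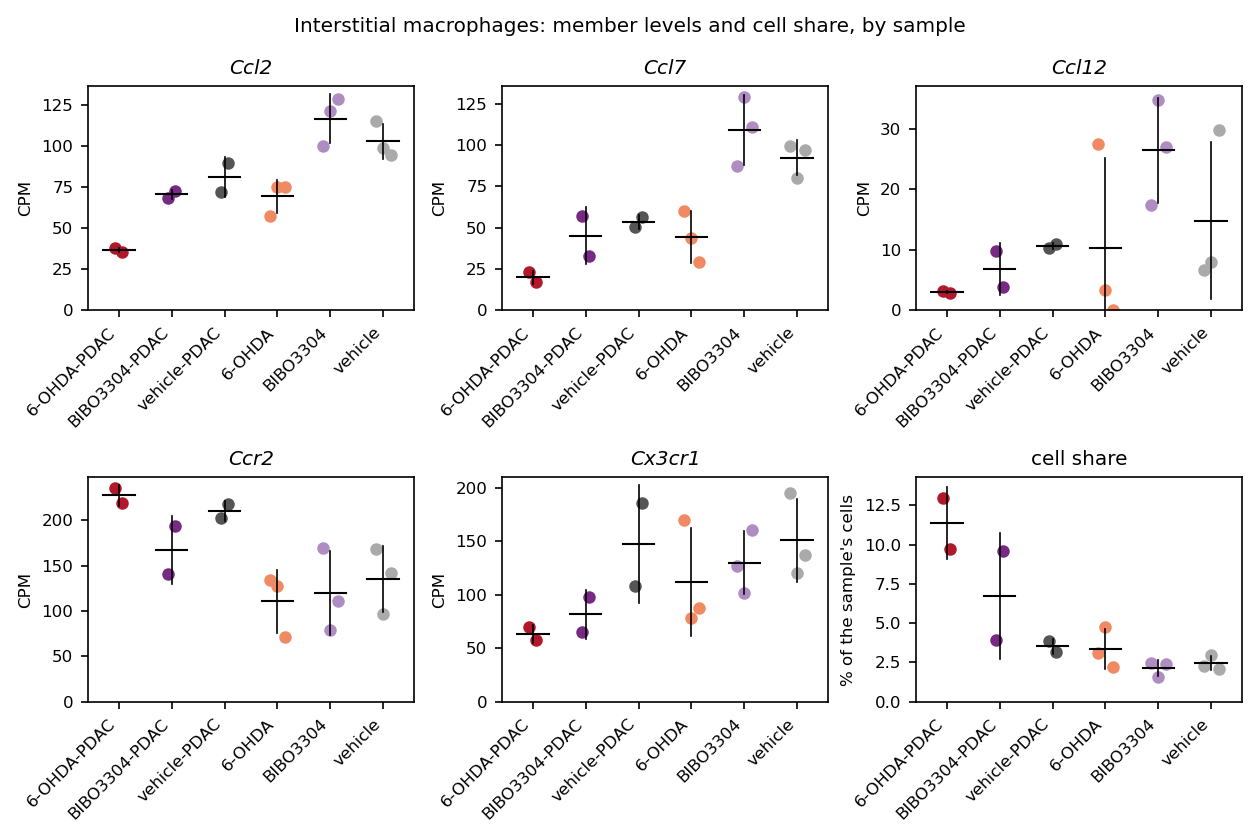
Levels of 5 genes in interstitial macrophages (CPM) and the share of these cells (percent of a sample's cells), 1 point per sample, with group mean (horizontal line) and SD (vertical line). Ccl2 was at 37.8 and 35.6 CPM in 6-OHDA-PDAC samples, below the other 13 samples, while their cell shares were 13% and 9.75%.

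Ccl2 and Ccl7 were also lower in seeded than in unseeded lungs under 6-OHDA. Ccl2 in interstitial macrophages stood at 37.8 and 35.6 CPM in 6-OHDA-PDAC samples, against 57.6, 75.3 and 75.2 CPM in 6-OHDA samples (-1.05 ± 0.26, adjusted p = 0.0134). Ccl7 stood at 22.9 and 17.1 CPM, against 60.4, 43.5 and 29.3 CPM (-1.29 ± 0.33, adjusted p = 0.0166), and again no sample of either group crossed into the other, as for 44.3% of all genes tested in these cells. These were all the calls among 40 tests, where 0.729% of all tests and, as lower, 6.88% of genes in interstitial macrophages passed. This comparison and the one against vehicle-PDAC share the 6-OHDA-PDAC samples, and both calls were lost without 6-OHDA-PDAC 1 (adjusted p = 0.109 for Ccl2 and 0.0676 for Ccl7) or 6-OHDA-PDAC 2 (0.153 and 0.202), Ccl2 also without 6-OHDA 2 (0.0539) and Ccl7 without 6-OHDA 1 (0.0944). Ccr2 in these cells did not pass (235.6 and 219.5 CPM in 6-OHDA-PDAC samples, against 134.5, 127.2 and 71.1 CPM in 6-OHDA samples, 0.87, adjusted p = 0.0632).

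Under BIBO3304, Ccl7 and Ccl2 in interstitial macrophages were lower with PDAC cells than without. Ccl7 stood at 57.2 and 33.0 CPM in BIBO3304-PDAC samples, against 87.3, 129.2 and 110.7 CPM in BIBO3304 samples (-1.37 ± 0.30, adjusted p = 0.00353). Ccl2 stood at 68.7 and 72.6 CPM, against 99.8, 121.7 and 128.7 CPM (-0.78 ± 0.25, adjusted p = 0.0321). In this comparison 11.2% of genes in interstitial macrophages passed as lower, and both calls were lost without BIBO3304-PDAC 2 (adjusted p = 0.147 and 0.187). The Ccl2 call was also lost without BIBO3304-PDAC 1 (0.142), without BIBO3304 2 (0.0784) and with the 2 groups fitted alone (0.0671). In vehicle-treated lungs neither passed: Ccl7 had 50.6 and 56.5 CPM in vehicle-PDAC samples, against 99.6, 80.3 and 97.0 CPM in vehicle samples (-0.90, adjusted p = 0.515, and -1.04, adjusted p = 0.230 without vehicle-PDAC 2).

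Other measures of the interstitial macrophages moved with these values. Their share of cells was 13% and 9.75% in 6-OHDA-PDAC samples, 3.92% and 9.58% in BIBO3304-PDAC samples and 3.86% and 3.18% in vehicle-PDAC samples, and between 1.57% and 4.73% in the samples without PDAC cells. The log2 fold change of the share was 1.84 ± 0.42 for 6-OHDA-PDAC against vehicle-PDAC (adjusted p = 0.0059, edgeR on cell numbers), or 1.48 without vehicle-PDAC 2. By the same test it was 1.99 ± 0.37 for 6-OHDA-PDAC against 6-OHDA (adjusted p = 0.00176) and 2.001 ± 0.38 for BIBO3304-PDAC against BIBO3304 (adjusted p = 0.00092). Alveolar macrophages were 565 of 3955 and 477 of 3499 cells in 6-OHDA-PDAC samples, against 2096 of 6814 and 4075 of 9157 in vehicle-PDAC samples. In BIBO3304-PDAC samples they were 1709 of 5466 and 1481 of 4737, against 826 of 4145, 679 of 3888 and 850 of 5279 in BIBO3304 samples. A smaller share of them raises the shares of other types, such as interstitial macrophages.

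The summed level of the 7 interstitial macrophage markers in these cells was 688 to 861 CPM in 6-OHDA-PDAC samples, 991 to 1242 CPM in BIBO3304-PDAC samples, 1728 to 2805 CPM in vehicle-PDAC samples, 1863 to 2404 CPM in 6-OHDA samples, 3742 to 5782 CPM with BIBO3304 alone and 2767 to 2957 CPM with vehicle alone. Of these 7 markers, 2, 4 and 5 fell in the comparisons of 6-OHDA-PDAC with vehicle-PDAC, of 6-OHDA-PDAC with 6-OHDA and of BIBO3304-PDAC with BIBO3304, where 3.2%, 6.88% and 11.2% of all genes in these cells fell, and 0 rose. Without vehicle-PDAC 2, the first comparison again gave 2. The 8 monocyte markers in the same cells summed to 795 to 858 CPM in 6-OHDA-PDAC samples and 926 to 1256 CPM in vehicle-PDAC samples. Among the 5 of them that were tested against vehicle-PDAC, Plac8 rose, by 1.82 on the log2 scale (adjusted p = 0.0125), and F13a1, a coagulation factor gene, fell, with -2.13 (adjusted p = 0.00100), where 0.326% of all genes in these cells rose. Without vehicle-PDAC 2 the Plac8 call was lost (1.63, adjusted p = 0.113) and F13a1 stood at -1.50 (adjusted p = 0.0206). The part of these changes in the ligand levels was not tested.

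In the lung as a whole a change of Ccl2 between 6-OHDA-PDAC and vehicle-PDAC samples was not shown. In sums over all cells Ccl2 was at 14.2 and 10.7 CPM in 6-OHDA-PDAC samples, against 9.05 and 14.5 CPM in vehicle-PDAC samples (0.13 ± 0.40, adjusted p = 0.908, and 0.52, adjusted p = 0.747 without vehicle-PDAC 2). In such sums fewer cells of a type and less RNA per cell cannot be told apart. Interstitial macrophages gave 35.2% and 29.2% of the Ccl2 transcripts of the 6-OHDA-PDAC samples, against 23.9% and 21.7% in vehicle-PDAC samples. Alveolar macrophages gave 7.43% to 9.94% in 6-OHDA-PDAC samples, against 20.1% to 38.8% in vehicle-PDAC samples. These shares are given with no test.

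A list of 12 genes of the signalling upstream of chemokine transcription held the cytokines Il1b, Tnf and Il6, members of the NF-kB, AP-1, IRF and STAT systems, and Nfkbia and Tnfaip3, which inhibit NF-kB and so damp that transcription. In interstitial macrophages 6 of 12 fell and 0 rose in 6-OHDA-PDAC against 6-OHDA samples, where 6.88% of all genes in these cells fell, with a median log2 fold change of -0.75 where the median over all genes was 0.01. On the log2 scale Il6 fell by 2.57, Nfkbiz by 1.13, Tnfaip3 by 1.08 and Jun by 0.99, with adjusted p-values from 0.000631 to 0.0160. In BIBO3304-PDAC against BIBO3304 samples 6 fell and 1 rose, where 11.2% of all genes in these cells fell and 6.81% rose, with a median of -0.75 against 0.03 over all genes, Nfkbiz falling by 1.60 and Tnfaip3 by 1.56. In 6-OHDA-PDAC against vehicle-PDAC samples 0 of 12 passed, and Tnfaip3 came closest (-0.89, adjusted p = 0.0507, and -0.86, adjusted p = 0.246 without vehicle-PDAC 2).

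Without PDAC cells neither drug moved a chemokine or receptor past the threshold. For 6-OHDA against vehicle, 0 of 42 tests passed in edgeR, 5 had an unadjusted p under 0.05, DESeq2 gave 0, and 0.0669% of all tests passed. Ccl2 in interstitial macrophages stood at 57.6, 75.3 and 75.2 CPM in 6-OHDA samples, against 115.1, 99.0 and 94.5 CPM in vehicle samples (-0.63 ± 0.24, adjusted p = 0.392), groups that did not overlap. Ccl7 stood at 60.4, 43.5 and 29.3 CPM, against 99.6, 80.3 and 97.0 CPM (-1.08 ± 0.29, adjusted p = 0.209), likewise without overlap, where 13.8% of all genes tested in these cells did not overlap. The 6-OHDA effect with PDAC cells minus that without was -0.59 ± 0.35 for Ccl2 and -0.39 ± 0.43 for Ccl7 (adjusted p = 0.788 and 0.904), so a difference between the 2 settings was not shown. Without vehicle-PDAC 2 it was -0.35 and -0.25 (adjusted p = 0.931 and 0.966). For this difference 0 of 40 tests passed in edgeR, 3 had an unadjusted p under 0.05, DESeq2 gave 0, and 0.00744% of all tests passed.

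For BIBO3304 against vehicle 0 of 42 tests passed in edgeR, 9 had an unadjusted p under 0.05, DESeq2 gave 1, and 0.307% of all tests passed. The smallest adjusted p was that of Ccr2 in monocytes, at 75.7, 34.3 and 82.1 CPM in BIBO3304 samples, against 143.9, 164.7 and 141.9 CPM in vehicle samples (-1.48 ± 0.37, adjusted p = 0.0756). All 3 BIBO3304 samples lay below all 3 vehicle samples, and 17.5% of all genes tested in monocytes did not overlap between these groups. With PDAC cells, BIBO3304 against vehicle gave 0 of 42 in edgeR, 5 with an unadjusted p under 0.05 and 0 in DESeq2, with 0.0317% of all tests passing. Seeding under vehicle gave 0 of 42 in edgeR, 5 with an unadjusted p under 0.05 and 0 in DESeq2, with 0.00176% of all tests passing.

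Cx3cl1 passed in 0 tests of any comparison. In aerocytes it stood at 76.0 and 83.9 CPM in BIBO3304-PDAC samples, against 27.0 and 45.6 CPM in vehicle-PDAC samples (1.34, adjusted p = 0.570, and 1.72, adjusted p = 0.376 without vehicle-PDAC 2). The vehicle samples without PDAC cells spread widely, at 54.9, 43.5 and 146.9 CPM, and vehicle-PDAC against vehicle gave -1.39 (adjusted p = 0.814, and -1.81, adjusted p = 0.516 without vehicle-PDAC 2). Aerocytes numbered 54 to 204 per sample, and their Cx3cl1 rested on 5 to 71 transcripts.

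Most calls came from seeding under BIBO3304, where 11 of 42 tests passed, 9 higher and 2 lower, with 4.25% of all tests passing. Ccr2 was higher in 6 types. In monocytes it stood at 146.2 and 225.5 CPM in BIBO3304-PDAC samples, against 75.7, 34.3 and 82.1 CPM in BIBO3304 samples (1.78 ± 0.38, adjusted p = 0.00457). In B cells it stood at 73.3 and 166.0 CPM, against 2.59, 2.05 and 5.95 CPM (5.12 ± 0.64, adjusted p = 0.000488), and the BIBO3304 values rest on 1 to 2 transcripts a sample. In neutrophils it stood at 90.8 and 113.3 CPM, against 13.1, 39.9 and 32.9 CPM (2.15, adjusted p = 0.0273). In each of these types the groups did not overlap, as was so for 39.5% of all genes tested in monocytes, 43.4% in B cells and 46.6% in neutrophils.

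Ccr2 passed as well in 3 types outside the leukocytes: gCap EC (16.3 and 38.9 CPM in BIBO3304-PDAC samples, against 3.99, 1.17 and 3.83 CPM in BIBO3304 samples, 3.31, adjusted p = 0.00812), alveolar type 2 cells (9.89 and 32.6 CPM, against 1.90, 1.67 and 5.27 CPM, 2.85, adjusted p = 0.0116) and alveolar fibroblasts (8.29 and 41.9 CPM, against 5.00, 1.28 and 4.02 CPM, 2.75, adjusted p = 0.0104). Summed over the 13 types that are neither leukocytes nor cancer cells, Ccr2 was at 9.197 and 39.3 CPM in BIBO3304-PDAC samples, 21.9 and 20.4 CPM in 6-OHDA-PDAC samples and 7.37 and 8.47 CPM in vehicle-PDAC samples, and at 7.87 to 13.3 CPM in 6-OHDA, 1.14 to 3.88 CPM in BIBO3304 and 4.52 to 9.33 CPM in vehicle samples. The part of free RNA or of mixed cells in these values was not tested. Median depth was 2417 and 1623 transcripts per cell in BIBO3304-PDAC samples, against 2631, 4846.5 and 3534 in BIBO3304 samples. The part of depth in the calls of this comparison was not tested. Among the BIBO3304-PDAC and BIBO3304 samples, BIBO3304-PDAC 2 had the highest Ccr2 value in each of the 6 types. The 11 calls were not kept without it, which leaves 1 sample in its group. Leaving out BIBO3304 2 left 6, and DESeq2 gave 10.

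**Figure D3:**
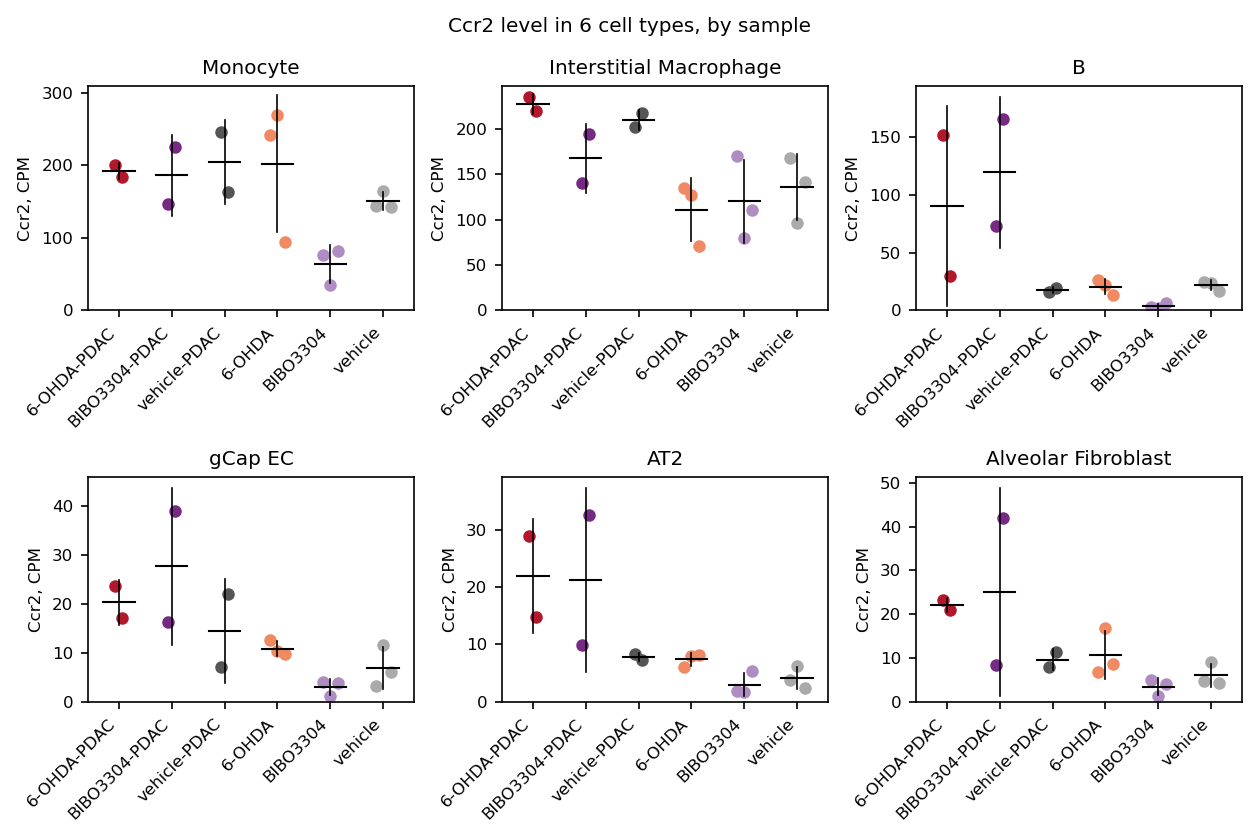
Ccr2 level (CPM) in 6 cell types, 1 point per sample, with group mean (horizontal line) and SD (vertical line). In B cells BIBO3304-PDAC samples stand at 73.3 and 166.0 CPM, above the BIBO3304 samples at 2.05 to 5.95 CPM, and in each of the 6 types BIBO3304-PDAC 2 is the higher of the BIBO3304-PDAC samples.

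Markers of other cells rose in those B cells too. Of the monocyte markers 2 of the 4 tested rose and of the interstitial macrophage markers 2 of 2, and 1 marker each of neutrophils, NK cells and alveolar type 2 cells rose, where 5.27% of all genes tested in B cells rose. Interstitial macrophage markers summed to 249 to 330 CPM in B cells of BIBO3304-PDAC samples, against 22.6 to 71.3 CPM in BIBO3304 samples, and B cell markers to 197 to 282 CPM, against 428 to 509 CPM. The part of other cells' RNA in the Ccr2 of B cells was not tested. Cx3cr1 in B cells passed too (2.11 ± 0.63, adjusted p = 0.0468). Ccr2 in B cells was also the one called test of 42 for the difference of the BIBO3304 effect with and without PDAC cells (5.49 ± 0.94, adjusted p = 0.0245), where 0.413% of all tests passed, and it had an adjusted p of 0.00327 without vehicle-PDAC 2 and 0.245 without BIBO3304-PDAC 2.

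Alveolar fibroblasts gave the other calls. Ccl2 in them stood at 9.72 and 16.4 CPM in BIBO3304-PDAC samples, against 2.38, 2.56 and 5.31 CPM in BIBO3304 samples (1.84 ± 0.43, adjusted p = 0.0150). Ccl7 stood at 4.57 and 3.64 CPM, against 1.91, 1.12 and 1.77 CPM (1.46 ± 0.44, adjusted p = 0.0417), on 4 to 16 transcripts a sample. With the 2 groups fitted alone neither passed (adjusted p = 0.0527 and 0.112). The Ccl2 call was also lost without BIBO3304 2 (adjusted p = 0.0590) or BIBO3304-PDAC 2 (0.180), and the Ccl7 call without BIBO3304 2 (0.134), BIBO3304 3 (0.0508), BIBO3304-PDAC 1 (0.325) or BIBO3304-PDAC 2 (0.176) and in DESeq2 (0.131). In BIBO3304-PDAC against BIBO3304 samples the ligands were higher in fibroblasts and lower in interstitial macrophages. The difference between the 2 cell types was not tested.

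In sums over the whole lung, seeding under BIBO3304 gave 3 of 7 calls, where 24.7% of all genes passed. Ccr2 was at 24.2 and 75.1 CPM in BIBO3304-PDAC samples, against 16.2, 11.5 and 15 CPM in BIBO3304 samples (1.83 ± 0.38, adjusted p = 0.00745). Ccl2 was at 8.59 and 19.9 CPM, against 4.73, 3.55 and 7.12 CPM (1.49 ± 0.38, adjusted p = 0.0146). Ccl8 was at 0.374 and 2.73 CPM, against 0.338, 0.103 and 0.315 CPM (2.61 ± 0.74, adjusted p = 0.0220). The Ccl8 values rest on 6 and 30 transcripts in BIBO3304-PDAC samples, against 6, 3 and 7 in BIBO3304 samples. Without BIBO3304-PDAC 2 there were 0 calls, without BIBO3304 2 there was 1, and DESeq2 gave 4.

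The other whole-lung comparisons gave 0 calls of 7 in both edgeR and DESeq2. The share of all genes passing was 0.00572% for 6-OHDA against vehicle, 15.6% for BIBO3304 against vehicle, 3.67% for 6-OHDA-PDAC against vehicle-PDAC, 3.16% for 6-OHDA-PDAC against 6-OHDA, and 0.0% for BIBO3304-PDAC against vehicle-PDAC, for vehicle-PDAC against vehicle and for both differences of effects. In edgeR 2 genes had an unadjusted p under 0.05 for BIBO3304 against vehicle, 1 gene in each of the 3 comparisons with 6-OHDA and for the difference of the BIBO3304 effects, and 0 in the others. The gene in the 3 comparisons with 6-OHDA was Ccr2. It was at 73.6 and 50.4 CPM in 6-OHDA-PDAC samples, against 25.7 and 32.3 CPM in vehicle-PDAC samples (1.14 ± 0.42, adjusted p = 0.165, and 1.33, adjusted p = 0.388 without vehicle-PDAC 2). It was at 30.6, 41.9 and 22.2 CPM in 6-OHDA samples, against 16.6, 22.5 and 13.6 CPM in vehicle samples (0.89 ± 0.35, adjusted p = 0.334). For 6-OHDA-PDAC against 6-OHDA the log2 fold change was 0.95 ± 0.37 (adjusted p = 0.207).

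Monocytes made up a larger share of the recovered cells under 6-OHDA, which does not give their number in the lung. Their share was 6.46%, 8.78% and 9.94% of cells in 6-OHDA samples, against 2.36%, 3.88% and 1.82% in vehicle samples. This is a log2 fold change of 1.46 ± 0.37 (adjusted p = 0.0126, edgeR on cell numbers), with an exact permutation p of 0.1, the smallest that 3 against 3 allows. Alveolar macrophages, the largest type, were 970 of 3963, 902 of 4144 and 730 of 3521 cells in 6-OHDA samples. In vehicle samples they were 2843 of 8010, 2675 of 6295 and 2746 of 7576, and a smaller share of them raises the shares of other types. BIBO3304 samples held 3.93%, 8.44% and 3.45% (0.75, adjusted p = 0.212). With PDAC cells the shares were 7.05% and 6.97% in 6-OHDA-PDAC samples, against 4.21% and 3.25% in vehicle-PDAC samples (1.07, adjusted p = 0.105), and 3.90% and 7.11% in BIBO3304-PDAC samples (0.78, adjusted p = 0.527). Without vehicle-PDAC 2 these changes were 0.66 and 0.27 (adjusted p = 0.544 and 0.982). The call for 6-OHDA against vehicle was lost when the share was taken among cells that are not alveolar macrophages (1.19, adjusted p = 0.0792), without 6-OHDA 3 (1.23, adjusted p = 0.0588), without vehicle 1 (1.23, adjusted p = 0.144) and without vehicle 3 (1.15, adjusted p = 0.110).

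**Figure D4:**
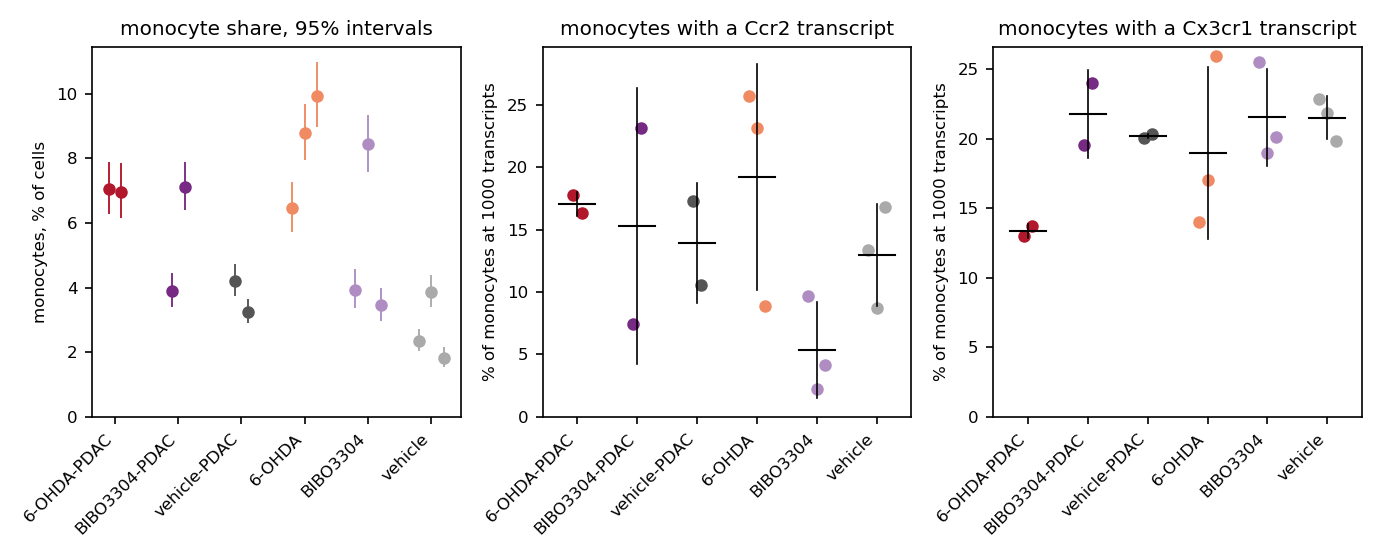
Left, monocytes as percent of a sample's cells, 1 point per sample with its exact 95% binomial interval. Middle and right, percent of monocytes with a Ccr2 or a Cx3cr1 transcript after thinning to 1000 transcripts per cell, with group mean (horizontal line) and SD (vertical line); Cx3cr1 is at 12.99% and 13.7% in 6-OHDA-PDAC samples, against 20.1% and 20.3% in vehicle-PDAC samples, a gap that was not seen after thinning to 500 transcripts, when the groups overlapped.

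At one depth of 1000 transcripts per cell, Ccr2 was present in 25.7%, 23.1% and 8.87% of monocytes in 6-OHDA samples, in 9.66%, 2.25% and 4.14% in BIBO3304 samples and in 13.3%, 8.74% and 16.8% in vehicle samples. The 6-OHDA and vehicle samples overlapped (exact permutation p = 0.3), and so did BIBO3304 and vehicle samples (p = 0.2, exact). With PDAC cells, Ccr2 was in 17.8% and 16.4% of monocytes in 6-OHDA-PDAC samples, 7.47% and 23.1% in BIBO3304-PDAC samples and 17.3% and 10.6% in vehicle-PDAC samples. At the same depth 1.11% of alveolar type 2 cells and 0.885% of gCap EC had a Ccr2 transcript, with median depths of 3025 and 1382 transcripts, against 2020 in monocytes.

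Cx3cr1 was in 12.99% and 13.7% of monocytes in 6-OHDA-PDAC samples, against 20.1% and 20.3% in vehicle-PDAC samples (exact permutation p = 0.333, the smallest that 2 against 2 allows), and in 19.5% and 24.0% in BIBO3304-PDAC samples. Thinned to 500 transcripts per cell, the shares were 11.3% and 11.2% in 6-OHDA-PDAC samples, against 14.1% and 10.2% in vehicle-PDAC samples, which overlapped. At 1000 transcripts and without PDAC cells it was in 14.02%, 17.0% and 25.9% in 6-OHDA samples, 25.5%, 19.0% and 20.1% in BIBO3304 samples and 22.9%, 21.9% and 19.8% in vehicle samples, which overlapped. Cells under 1000 transcripts were left out, between 13 and 112 per sample. They were 84 of 189 monocytes in vehicle 1 and 112 of 337 in BIBO3304-PDAC 2. In BIBO3304 2 they were 17 of 328 and in BIBO3304 3 they were 13 of 182, so samples differed in the part of their monocytes compared. The thinning was drawn once. Both receptors together were found in at most 8.57% of a sample's monocytes. In CPM, Cx3cr1 in monocytes was at 147.2 and 172.5 in 6-OHDA-PDAC samples, against 232.8 and 330.8 in vehicle-PDAC samples (-0.84 ± 0.26, adjusted p = 0.484, and -0.50, adjusted p = 0.851 without vehicle-PDAC 2).

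Genes of classical and non-classical monocytes were looked up beside the receptors. In monocytes of BIBO3304-PDAC against BIBO3304 samples, 7 of 15 tested non-classical genes fell and 0 rose, where 3.5% of all genes tested in monocytes fell and 5.55% rose (median log2 fold change -1.04, against -0.0012 over all genes), among them Pparg, a nuclear receptor (-1.80), Cd300e (-1.68) and Ace, angiotensin-converting enzyme (-1.64). Of 12 classical genes 1 rose and 0 fell. Of 11 other genes of the CC and CX3C system 4 rose, among them Ccl6, a CC chemokine of myeloid cells (1.36 ± 0.26, adjusted p = 0.00214). In the same monocytes 4 of 4 tested interstitial macrophage markers and 3 of 5 alveolar macrophage markers rose, and their part in these values was not tested.

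The shares of all genes in interstitial macrophages that fell, 6.88% and 11.2%, stand above, and 2.34% rose in 6-OHDA-PDAC against 6-OHDA and 6.81% in BIBO3304-PDAC against BIBO3304 samples. Against these, the CC and CX3C list gave 1 lower of 15 in 6-OHDA-PDAC against 6-OHDA samples, Ccl4 (-1.25, adjusted p = 0.0452), and 2 higher of 15 in BIBO3304-PDAC against BIBO3304 samples. The list of 12 monocyte adhesion genes had 9 tested there. In 6-OHDA-PDAC against 6-OHDA samples 1 rose, Itgal (1.07), and 2 fell, Selp (-2.70) and Icam1 (-1.21). In BIBO3304-PDAC against BIBO3304 samples 2 rose, among them Itgal (1.62), and 2 fell, among them Vcam1 (-2.65). Of the 6 monocyte growth factor and receptor genes, in whole-lung sums 2 rose and 0 fell in BIBO3304-PDAC against BIBO3304 samples, and 1 rose and 2 fell in BIBO3304 against vehicle samples, where 24.7% and 15.6% of all genes passed in either direction.

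**Figure D5:**
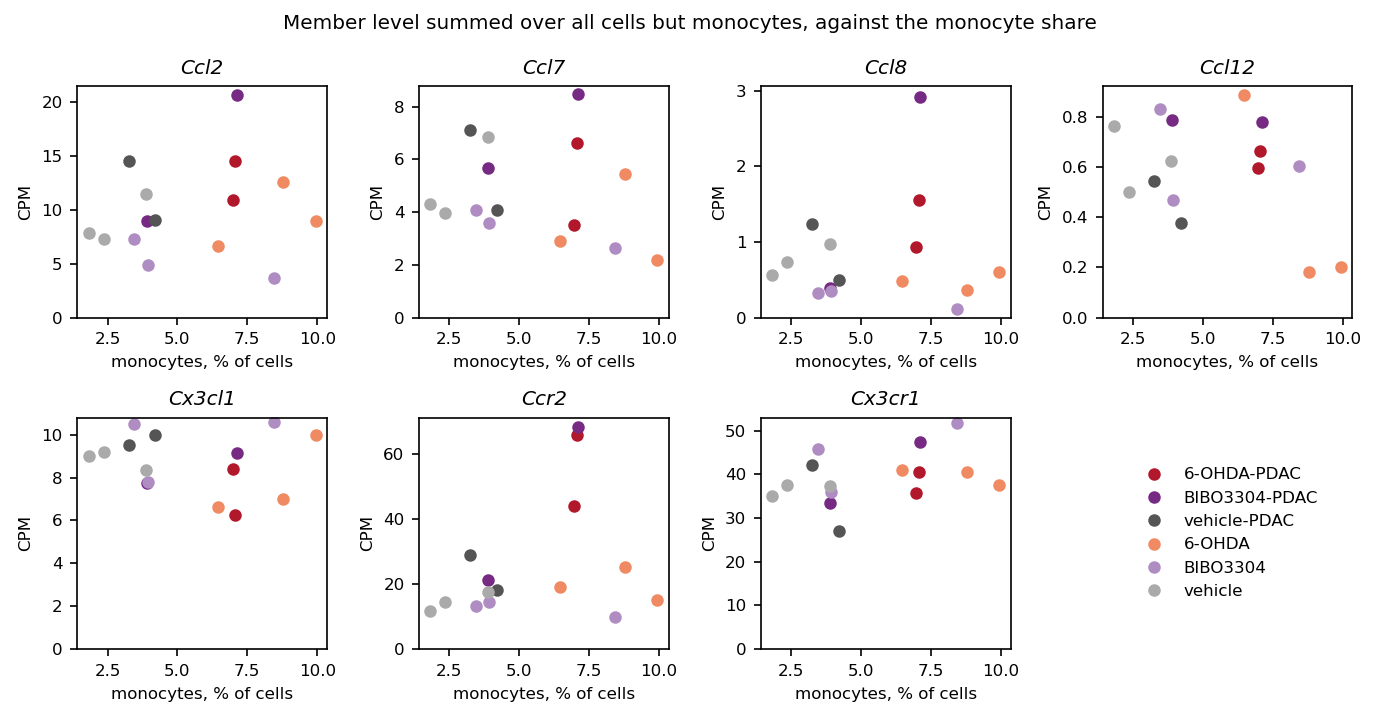
Level of each gene in a sample's cells other than monocytes (CPM, y axis) against the sample's monocyte share (percent of cells, x axis), 1 point per sample, coloured by group. Ccr2 reaches its highest levels in samples with 7.05% and 7.11% monocytes and lies lower in the 6-OHDA samples with 8.78% and 9.94%.

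Set against the monocyte share over the 15 samples, the level of 0 of the 7 genes outside monocytes passed. edgeR with the log2 share as a covariate called 0 of 17030 genes (0.0%), and 1 of the 7 had an unadjusted p under 0.05. That was Ccr2, with 0.68 ± 0.29 log2 units per doubling of the share (p = 0.0306 from the edgeR model, adjusted p = 0.662). With terms for treatment and PDAC cells its slope was 0.17 ± 0.32 (p = 0.596 from the edgeR model), and without vehicle-PDAC 2 it was 0.76 ± 0.30 (adjusted p = 0.891). Within samples with PDAC cells its slope was 1.31 ± 0.32 (adjusted p = 0.242) and within samples without them 0.21 ± 0.14 (adjusted p = 0.805). Ccl2 had a slope of 0.21 ± 0.21 and Ccl7 of -0.08 ± 0.20 (adjusted p = 0.822 and 0.923).

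Correlations of log2 CPM with the share, 28 in all (7 genes in 4 sets of samples), gave no permutation p under 0.05, and the smallest adjusted over the 28 was 0.676 for r and 0.610 for rho. For Ccr2, Pearson's r was 0.30 and Spearman's rho 0.32 over 15 samples (permutation p = 0.271 and 0.247), 0.87 and 0.77 in the 6 PDAC samples (p = 0.075 and 0.103, exact permutation) and 0.30 and 0.42 in the 9 samples without PDAC cells (p = 0.445 and 0.269, permutation). Without the 2 samples farthest from the median share, r was 0.47 (permutation p = 0.108). For Ccl2, r was 0.12 and rho 0.18 (permutation p = 0.674 and 0.530), and for Ccl12, the most negative, r was -0.42 and rho -0.30 (permutation p = 0.121 and 0.283). For the 5 ligands, a relation of the level outside monocytes with the monocyte share was not detectable over these 15 samples.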

How the data were processed

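Lung cells were profiled with a split-pool method (Parse Evercode WT v3) and sequenced on an Ultima platform, per the labels' protocols, which also state that lungs were dissociated and live cells were sorted and fixed. The deposited matrix holds raw counts of transcripts per gene and cell, per the file headers, and the submitters' processing notes name Seurat 5.3.0 and the build mm39. The sources used here give no aligner, counter, cell filter or doublet removal. The 16 GEO entries are sublibraries that each hold cells of all 15 samples and carry no group, so sample, treatment and cell type came from the authors' deposited cell table, whose seeding state "IV" was read as seeded with PDAC cells. The genes and lists were chosen with earlier results of these data known.

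Sums of the counts over each cell type of a sample, using samples with at least 20 cells of a type, were fitted over all genes and all 6 groups with edgeR 4.0.16 (R 4.3.3), TMM scaling, its filter on low counts, the quasi-likelihood test and Benjamini-Hochberg adjustment within a type. DESeq2 1.42.0, single groups, no filter, a replicate block and leaving out samples were alternatives. Cell shares were fitted the same way over 22 types. All 7 genes are reported. From the 6 further gene lists (CC and CX3C system, growth factors, adhesion, classical and non-classical monocyte genes, inducers), up to 4 genes per comparison past the threshold were named by p, or up to 2 that did not pass. A gene that this rule picks is not reported here. Shares of cells were compared after thinning each cell to 1000 transcripts. Intervals and limits cover counting error only. Simulated counts were used to test the fits in monocytes, interstitial macrophages and whole-lung sums, for 6-OHDA against vehicle without and with PDAC cells. Of genes changed 2-fold, 28.5% and 10% were recovered in monocytes, without and with PDAC cells. In interstitial macrophages 17% and 13.5% were recovered, and in whole-lung sums 57% and 40.5%. For 4-fold changes it was 74% to 84.5%. A test that did not pass therefore does not show an unchanged level. Replicate numbers were not used to pair samples in the main fits. Deviations of same-numbered samples correlated with a median of -0.04 over 33 pairs, from -0.35 to 0.49. Deviations within a group of 2 samples mirror each other, so these values cannot decide whether samples were paired.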

Additional observations from a re-analysis of the deposited data

Results flagged for a closer look

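The effect of BIBO3304 on Ccr2 in B cells differed with and without PDAC cells, by 5.49 ± 0.94 on the log2 scale (SE, adjusted p = 0.0245, edgeR interaction term). Ccr2 in B cells was at 73.3 and 166.0 CPM in BIBO3304-PDAC samples, against 15.4 and 19.1 CPM in vehicle-PDAC samples, and at 2.59, 2.05 and 5.95 CPM in BIBO3304 samples, against 24.3, 24.1 and 16.6 CPM in vehicle samples. The 6-OHDA-PDAC samples stood at 152.0 and 29.4 CPM. These values rest on 1 to 69 transcripts a sample. Leaving out 1 sample at a time gave 4.77 to 5.96, and the call was lost without BIBO3304 1 (adjusted p = 0.0586), BIBO3304 2 (0.0902), BIBO3304-PDAC 2 (0.245), vehicle 2 (0.0851) or vehicle-PDAC 1 (0.0929). Markers of macrophages and monocytes were also higher in B cells of BIBO3304-PDAC than of BIBO3304 samples, and their part in the difference was not tested.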

How the results depend on the processing

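Of 382 alternatives to the 49 results that answer a comparison, 317 kept direction and side of the threshold. The 17 called tests of single genes kept their direction in 204 of 204 alternatives and stayed past the threshold in 138. These tests were picked because they passed, and the alternatives reuse most of the same samples. The kept direction is therefore no separate evidence for the calls. Where values changed, the cause was not tested. Counts of calls by cell type were 1 for BIBO3304 against vehicle with DESeq2 and with the groups fitted alone and 5 without the filter on low counts, 0 (alone) and 5 (no filter) for 6-OHDA-PDAC against vehicle-PDAC, 1 (no filter) for BIBO3304-PDAC against vehicle-PDAC, 7 (alone) for BIBO3304-PDAC against BIBO3304 and 2 (no filter) for the BIBO3304 difference. In whole-lung sums, no filter gave 1 for 6-OHDA against vehicle, 2 for BIBO3304 against vehicle, 3 for the BIBO3304 difference, and 1 each for 6-OHDA-PDAC against vehicle-PDAC, BIBO3304-PDAC against vehicle-PDAC, vehicle-PDAC against vehicle and 6-OHDA-PDAC against 6-OHDA. Groups fitted alone gave 1 for BIBO3304 against vehicle and 1 for 6-OHDA-PDAC against 6-OHDA.

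Leaving out 1 sample gave 0 to 2 calls by cell type for 6-OHDA-PDAC against 6-OHDA, 0 to 3 for 6-OHDA-PDAC against vehicle-PDAC, 0 to 1 for BIBO3304 against vehicle (1 without BIBO3304 3), 0 to 10 for BIBO3304-PDAC against BIBO3304, 0 to 4 for BIBO3304-PDAC against vehicle-PDAC (4 without BIBO3304-PDAC 1) and 0 to 2 for the BIBO3304 difference. In whole-lung sums it gave 0 to 3 for BIBO3304-PDAC against BIBO3304 and 0 to 2 for the BIBO3304 difference. The log2 change of the monocyte share ran from 1.15 to 1.71 for 6-OHDA against vehicle, -0.199 to 0.079 for 6-OHDA-PDAC against 6-OHDA, -0.20 to 0.92 for BIBO3304-PDAC against BIBO3304 and -0.56 to 0.55 for the BIBO3304 difference. That difference was also -0.41 without scaling, -0.12 among cells other than alveolar macrophages and -0.026 with a replicate block, and 6-OHDA against vehicle was 1.19 among cells other than alveolar macrophages. The replicate block ended the calls of Cx3cr1 (adjusted p = 0.0511) and Ccl2 (0.0535) in interstitial macrophages, for 6-OHDA-PDAC against vehicle-PDAC and BIBO3304-PDAC against BIBO3304, and of Ccl7 in alveolar fibroblasts (0.0735). The step from monocytes to the next type for Cx3cr1 was 0.46 with at least 50 cells.

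Shares of monocytes with a receptor transcript depended on depth. Differences in percentage points for Cx3cr1, thinned to 500 transcripts and not thinned, were -3.65 and 16.5 for BIBO3304 against vehicle, -0.945 and -10.8 for 6-OHDA-PDAC against vehicle-PDAC, -1.63 and -10.4 for BIBO3304-PDAC against vehicle-PDAC and -4.3 and 8.57 for vehicle-PDAC against vehicle. Not thinned, Cx3cr1 in BIBO3304-PDAC against BIBO3304 was -18.3, and Ccr2 in vehicle-PDAC against vehicle 11.1. Depth limits Ccl8 and Ccl12 most, with 185 and 153 transcripts in all.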

Other observations

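Growth factor receptors of monocytes and macrophages were higher in B cells of BIBO3304-PDAC than of BIBO3304 samples, Csf1r by 3.50 ± 0.66, Csf2ra by 1.96 ± 0.48 and Csf2rb by 1.96 ± 0.49 on the log2 scale (SE, adjusted p = 0.00665, 0.0204 and 0.0215, edgeR). In this comparison 5.27% of all genes tested in B cells rose. Values of these receptor genes without single samples are not given here. Csf1r, Csf2ra and Csf2rb mark myeloid cells, and the part of myeloid RNA in them was not tested. In interstitial macrophages without PDAC cells, Adgre4, an adhesion receptor of non-classical monocytes, rose under 6-OHDA against vehicle by 1.84 ± 0.33 (adjusted p = 0.0298, edgeR). It was the one call among the 11 non-classical genes tested there. Over all cell types 0.0669% of all tests passed in this comparison, in either direction. The share of all genes in interstitial macrophages that rose is not given here, so how rare such a rise was in these cells is not shown.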
